A study of Mus musculus with 94 samples.

Results

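The L1_Mur, L1VL and L1_Rod elements are rodent families of LINE-1 (L1) retrotransposons, and their RNA was measured in 2 brain tissues, hippocampus and cortex, of Ts65Dn (TS) mice and euploid mice of the same colony (WT) that drank lamivudine or water. Members were all elements of the deposited count table whose name, before the copy number that follows "_dup", starts with L1_Mur, L1VL or L1_Rod. They were 27659 of 430083 L1 elements (6.43%), in 7 subfamilies: 2350 copies of L1_Mur1, 6284 of L1_Mur2, 9570 of L1_Mur3, 692 of L1VL1, 2150 of L1VL2, 2477 of L1VL4 and 4136 of L1_Rod. The name alone chose them, so that no measured value entered the choice.

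L1s are retrotransposons that copy themselves through an RNA intermediate, and a full-length L1 encodes an RNA-binding protein and a protein with endonuclease and reverse transcriptase activity. Most L1 copies of a mammalian genome are truncated or carry mutations, and the copies known to move in present-day mice belong to the young L1Md_A, L1Md_T and L1Md_Gf subfamilies, not to those described here. A read counted on an old copy can come from a transcript that starts in the copy or from a longer transcript that contains it, and the counts do not separate the 2 cases. Lamivudine is a nucleoside inhibitor of reverse transcriptase, the enzyme that L1s need for making new copies. Sequences of these copies were not analysed here.

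Total RNA of 94 libraries from 48 male mice was sequenced by the authors, and the values are counts of reads per L1 element. The suffix -t marks lamivudine at 3 mg/kg in the drinking water and -nt marks water alone. There were 9 cortex and 8 hippocampus libraries of WT-nt mice, 17 of each tissue of WT-t mice, 9 and 8 of TS-nt mice, and 13 of each tissue of TS-t mice. Ts65Dn is a Down syndrome model with an additional chromosome made of segments of MMU16 and MMU17, WT mice were euploid animals of the same colony (dams B6EiC4Sn.BLiA-Ts(1716)65Dn/DnJ, sires B6C3F1/OlaHsd), and the labels give an age of 3 to 4 months. The study's methods give a treatment as long as the upper end of that age, so that it is unclear whether the age is that at sampling. Of the 48 mice, 46 had a library of each tissue. The segment of MMU17 also holds genes without a counterpart on human chromosome 21, which limits TS mice as a model. The study's methods mention pooling of samples, so that whether a library is a single mouse remained unclear, and the p-values measure the spread between libraries. All non-treated mice had animal labels beginning with 20, whereas of the 30 treated mice 11 did, so that treatment and label start are partly confounded. The table holds no genes, so that the tissues could not be checked against marker genes. In bulk tissue, fewer cells of a type and less RNA per cell cannot be told apart.

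A cortex library held 186545 to 1165192 L1 counts, with a median of 323416, of which 7008 to 81577 fell on members. A hippocampus library held 178454 to 403378, with a median of 259745, of which 6625 to 19871 fell on members. On the first principal component of L1 counts, 8 cortex libraries (4 WT-t, 2 TS-t, 1 TS-nt and 1 WT-nt) were farther from the median than 3 median absolute deviations, whereas no hippocampus library was. A WT-t cortex library among the 8 had counts on only 189 members, against a median of 2831 per cortex library. A WT-nt cortex library among the 8 had the highest L1 total. Calls named below that change without these 8 libraries are given both ways.

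The counts were spread thinly over many copies. In cortex 22917 members (82.9%) had a count in any library and in hippocampus 16021 (57.9%), but 9109 and 5211 of them had counts in 1 library only. A single copy could be tested for 315 members in cortex, out of 5416 L1 elements with enough counts, and for 230 members in hippocampus, out of 4238. The tested copies were 24 of L1_Mur1, 54 of L1_Mur2, 77 of L1_Mur3, 22 of L1VL1, 53 of L1VL2, 46 of L1VL4 and 39 of L1_Rod in cortex. In hippocampus they were 14, 37, 54, 16, 41, 37 and 31 in the same order. In cortex 50% of the members' counts fell on 1063 copies and in hippocampus on 560. In L1VL1, the smallest subfamily, 50% of the counts fell on 21 of its 692 copies in cortex and on 11 in hippocampus, and in L1VL4 on 68 and 31 of 2477. In L1_Mur3, the largest, they fell on 429 and 212 of 9570.

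Members held less of the L1 counts than of the L1 copies. The median share of a library's L1 counts was 4.49% in cortex (2.92% to 7.001%) and 4.17% in hippocampus (3.504% to 4.93%), against 6.43% of the elements. Over all cortex libraries there were 28.8 counts per member copy and 38.9 per L1 copy, and in hippocampus 18.5 and 28.3. The L1VL subfamilies had more counts per copy than the others. In cortex the counts per copy were 44.7 for L1VL1, 44.4 for L1VL2 and 38.4 for L1VL4, and between 24.7 and 26.8 for the 3 L1_Mur subfamilies and L1_Rod. In hippocampus they were 32.6, 32.2 and 26.2 for the L1VL subfamilies and between 14.3 and 17.1 for the other 4. Lengths of the copies were not analysed here, so that these are counts per copy and not levels per length.

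The order of the 7 shares was the same in both tissues. L1_Mur3 had the largest share, with a median of 1.39% of L1 counts in cortex and 1.31% in hippocampus. It was followed by L1_Mur2 (0.839% and 0.740%), L1_Rod (0.640% and 0.583%), L1VL2 (0.570% and 0.576%), L1VL4 (0.551% and 0.528%), L1_Mur1 (0.330% and 0.272%) and L1VL1 (0.183% and 0.181%). The ranges of L1VL2 and L1VL4 overlapped in both tissues: in cortex L1VL2 held between 0.329% and 0.752% of the counts of a library and L1VL4 between 0.229% and 0.802%, and in hippocampus the ranges were 0.415% to 0.651% and 0.448% to 0.640%.

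Group medians lay close together in each subfamily. The share of L1_Mur3 in cortex had medians of 1.40% in WT-nt, 1.35% in WT-t, 1.34% in TS-nt and 1.41% in TS-t mice, and in hippocampus of 1.298%, 1.32%, 1.28% and 1.31%. For L1_Mur1 the cortex medians were 0.353%, 0.330%, 0.305% and 0.334% in the same order and the hippocampus medians 0.270%, 0.273%, 0.235% and 0.282%. The ranges of the 4 groups overlapped in each of these sets. In L1VL1, the hippocampus medians were 0.172%, 0.176%, 0.185% and 0.192%, again with overlapping ranges.

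**Figure D1:**
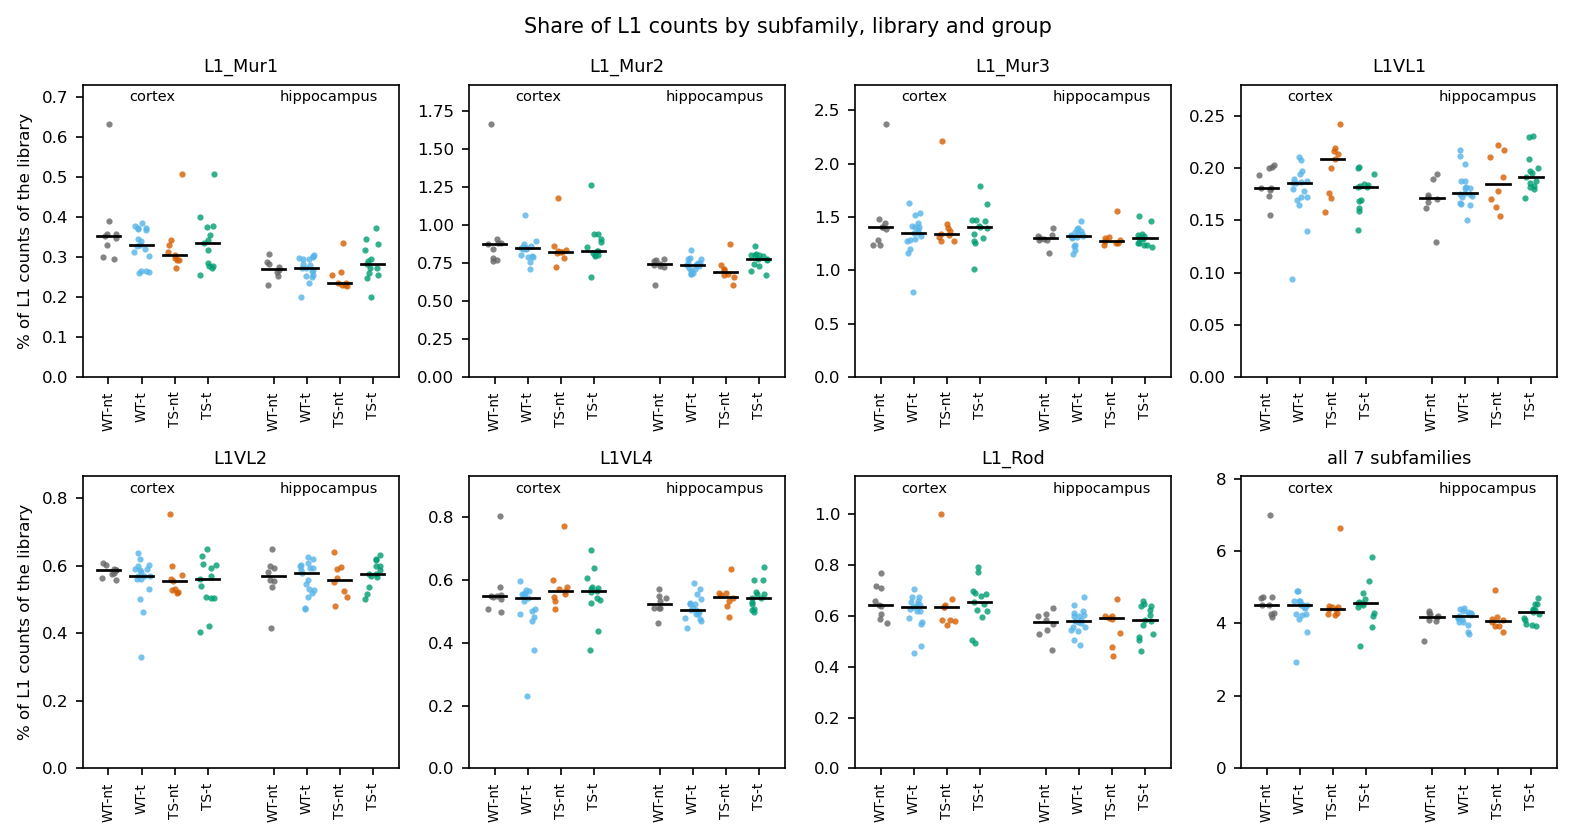
Share of each library's L1 counts (%) held by each of the 7 subfamilies and by all 7 together, in cortex and hippocampus libraries of both genotypes with and without lamivudine; each point is a library. The 4 groups overlap in every subfamily, and the highest share of all 7 is 7.001% in a WT-nt cortex library.

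The 10 most abundant copies of a subfamily held between 14.2% (L1_Mur2) and 37.7% (L1VL1) of its counts in cortex and between 18.3% and 49.1% of them, in the same subfamilies, in hippocampus. L1_Mur3_dup7195 was the most abundant member in both tissues, with 9.35% of all L1_Mur3 counts in cortex and 10.46% in hippocampus. Its level was 2829.7 ± 717 CPM (SD, n = 48) in cortex and 2464.9 ± 538 CPM (n = 46) in hippocampus. CPM are counts per 1000000 counts on the L1 elements with enough counts for a test, scaled with TMM factors. They are therefore higher than counts per 1000000 of all L1 counts would be. In cortex its group medians were 2789 CPM in WT-nt, 2945 in WT-t, 2789 in TS-nt and 2591 in TS-t mice, and the range of 1971 to 3341 CPM in WT-nt overlapped that of every other group. It was counted in all 94 libraries.

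L1_Rod_dup3008 held 7.60% of the L1_Rod counts in cortex and 6.65% in hippocampus, at 993 ± 289 CPM (n = 48) and 687 ± 188 CPM (n = 46). L1_Mur1_dup6397 held 9.27% and 11.7% of the L1_Mur1 counts, at 694 ± 463 and 579 ± 353 CPM. Its spread was wide because 6 libraries of each tissue had no count of it, whereas others reached 1636 CPM in cortex and 1332 CPM in hippocampus. In the other 4 subfamilies the most abundant copy was not the same in the 2 tissues. In L1_Mur2 it was L1_Mur2_dup3194 in cortex (628 ± 325 CPM) and L1_Mur2_dup16221 in hippocampus (735 ± 221 CPM). In L1VL1 it was L1VL1_dup1554 in cortex (285 ± 113 CPM) and L1VL1_dup1644 in hippocampus (429 ± 192 CPM), which held 13.02% of the subfamily there. In L1VL2 the copies were L1VL2_dup3208 (445 ± 158 CPM in cortex) and L1VL2_dup3788 (596 ± 167 CPM in hippocampus). In L1VL4 they were L1VL4_dup4612 (600 ± 167 CPM in cortex) and L1VL4_dup3720 (673 ± 141 CPM in hippocampus).

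The tissues were then compared, with all 94 libraries in a model and the mean over the 4 groups of hippocampus minus cortex as the contrast. All L1_Mur subfamilies and L1_Rod were lower in hippocampus, as a sum over their copies. The log2 fold change was -0.38 for L1_Mur1 (SE 0.059, edgeR quasi-likelihood test, adjusted p = 9.98e-08), -0.30 for L1_Mur2 (SE 0.050, adjusted p = 5.93e-07), -0.20 for L1_Rod (SE 0.035, adjusted p = 5.93e-07) and -0.15 for L1_Mur3 (SE 0.043, adjusted p = 0.00188). These 4 kept the direction and the call with mouse as a block, where the values were -0.36, -0.27, -0.20 and -0.12, and without the 8 cortex libraries, where they were -0.28, -0.18, -0.16 and -0.065. Without these libraries the differences of L1_Mur2 and L1_Mur3 shrank by more than 1.5 times. Of all 133 L1 subfamilies tested, 70.7% were called between the tissues, 33.1% higher and 37.6% lower in hippocampus, so that a call by itself does not set these subfamilies apart.

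The L1VL subfamilies differed less between the tissues. L1VL4 was lower in hippocampus by a small margin (-0.08, SE 0.038, adjusted p = 0.0510), and the call was lost without the 8 cortex libraries (-0.028, adjusted p = 0.265) and with library size alone in place of TMM factors (-0.050, adjusted p = 0.292). L1VL1 had a log2 fold change of -0.04 (95% interval -0.12 to 0.030, adjusted p = 0.308) and L1VL2 of -0.03 (-0.079 to 0.022, adjusted p = 0.333), and neither passed the test. The sign of L1VL1 turned without the 8 cortex libraries (0.0010). With mouse as a block L1VL4 was at -0.070 (adjusted p = 0.0943).

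The tissues were also compared within each condition. L1_Mur1 was at -0.57 in WT-nt (SE 0.134, adjusted p = 0.00126), -0.34 in WT-t (SE 0.094, adjusted p = 0.00482), -0.35 in TS-nt (SE 0.134, adjusted p = 0.0877) and -0.27 in TS-t mice (SE 0.107, adjusted p = 0.0441), and passed the threshold in all 4. L1_Mur2 and L1_Rod passed it in every condition but TS-nt (-0.25, adjusted p = 0.190, and -0.18, adjusted p = 0.149), and there they passed without the 8 cortex libraries (-0.24, adjusted p = 8.59e-05, and -0.20, adjusted p = 0.0166). With all libraries L1_Mur3 (-0.28, adjusted p = 0.0194), L1VL1 (-0.18, adjusted p = 0.0738) and L1VL4 (-0.20, adjusted p = 0.0576) passed in WT-nt mice and in no other condition.

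The values of WT-nt mice rested on the cortex library of mouse 24, which had the highest L1 total. Without it L1_Mur3 was at -0.041 (adjusted p = 0.731), L1VL1 at -0.082 (adjusted p = 0.522) and L1VL4 at -0.016 (adjusted p = 0.911), and none of these 3 passed. L1_Mur2 (-0.17, adjusted p = 0.128) and L1_Rod (-0.16, adjusted p = 0.116) did not pass in WT-nt mice either, and L1_Mur1 passed with a smaller value (-0.31, adjusted p = 0.0773). In the same edgeR fit L1_Mur3 passed in WT-t (-0.094, adjusted p = 0.0822) and TS-t mice (-0.15, adjusted p = 0.0161). It did not pass in TS-nt mice (-0.11, adjusted p = 0.274). There L1_Mur2 (-0.25, adjusted p = 0.0188) and L1_Rod (-0.19, adjusted p = 0.0359) passed. Without all 8 cortex libraries L1_Mur1, L1_Mur2 and L1_Rod passed in each condition, L1_Mur3 and L1VL4 passed in none, and L1VL1 was higher in hippocampus of TS-t mice (0.14, adjusted p = 0.0464). The fits without these libraries were chosen after seeing the data. Whether the tissue difference itself varied between conditions is the same question as whether group differences varied between tissues, and was not tested.

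**Figure D2:**
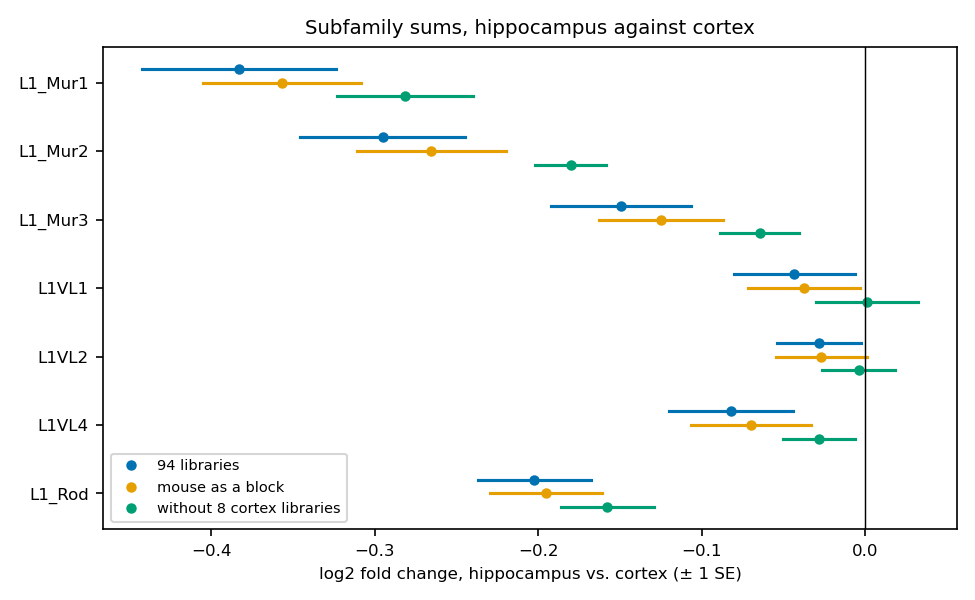
Log2 fold change of summed counts in hippocampus against cortex for each of the 7 subfamilies; points are estimates and lines ± 1 SE from edgeR, with 94 libraries, with mouse as a block and without the 8 cortex libraries far along the first principal component. L1_Mur1, L1_Mur2, L1_Mur3 and L1_Rod lie below 0 in all 3 fits, and L1VL1 and L1VL2 lie near 0.

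Single copies differed between the tissues in both directions. Of 446 members tested in this comparison, 97 (21.7%) were called, 38 higher and 59 lower in hippocampus, against 22.7% of all 7551 L1 elements tested (10.4% higher and 12.2% lower). The share of members called was therefore near that of L1 elements in general. An element could enter this test through counts in 1 tissue, and then lay toward that tissue by selection. All 39 members called of the 114 that passed the count filter within cortex alone were lower in hippocampus, and all 11 called of the 32 that passed it within hippocampus alone were higher. Of the 198 members that passed it within each tissue, 40 (20.2%) were called, 25 higher and 15 lower, against 23.4% of 3722 L1 elements (14.2% higher and 9.19% lower). The remaining 102 members passed only with both tissues pooled, and 7 of them were called.

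By subfamily, the called copies were 1 higher and 4 lower of 31 in L1_Mur1, 7 and 14 of 75 in L1_Mur2, 9 and 17 of 119 in L1_Mur3, 2 and 4 of 33 in L1VL1, 8 and 6 of 72 in L1VL2, 6 and 8 of 63 in L1VL4 and 5 and 6 of 53 in L1_Rod. The median log2 fold change was -0.14 over the members tested and -0.09 over all elements tested. With DESeq2 size factors these medians were -0.29 and -0.22, a shift of all elements, and 25 members were called higher and 86 lower. The share of all L1 elements called in that fit is not given here, so that these counts do not set the members apart.

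Of the called copies with the largest differences, L1_Mur3_dup13179 alone passed the count filter within each tissue, and the others are given as a description. L1_Rod_dup234 passed it in hippocampus alone, and had the largest fitted difference among those higher there. It was at 0 in 38 of 48 cortex libraries and in 4 of 46 hippocampus libraries, and its mean was 3.48 ± 11.5 CPM (SD) in cortex and 48.1 ± 32.8 CPM in hippocampus. The group medians in hippocampus were 63.9 CPM in WT-nt, 40.9 in WT-t, 43.8 in TS-nt and 49.4 in TS-t mice, and those in cortex were all 0. The fitted log2 fold change was 3.66 (SE 0.445). The only WT-t cortex library with a count reached 71.99 CPM, which is above the hippocampus median of each group.

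L1_Mur3_dup13179 was an abundant copy with higher counts in hippocampus. Its cortex medians were 272 CPM in WT-nt, 296 in WT-t, 343 in TS-nt and 299 in TS-t mice, and its hippocampus medians 940, 961, 1151 and 802 CPM. The medians of the tissues stood far apart and the ranges overlapped, since the highest cortex library had 751 CPM and the lowest hippocampus library 152 CPM. Its log2 fold change was 1.72 (SE 0.171, edgeR adjusted p = 3.87e-14). L1_Mur3_dup4717 (19.1 ± 17.7 CPM in cortex and 72.9 ± 39.04 in hippocampus) and L1VL2_dup770 (9.91 ± 13.7 and 32.1 ± 34.3) had fitted log2 fold changes of 1.96 and 1.66, where the first passed the count filter in hippocampus alone and the second in neither tissue alone. L1VL2_dup770 was at 0 in 25 cortex and 9 hippocampus libraries.

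The 4 called copies with the largest fitted differences among those lower in hippocampus entered the test through cortex (3) or through both tissues pooled (L1_Mur3_dup4120), and none passed the count filter within hippocampus. L1_Mur2_dup1396 had a mean of 48.6 ± 50.1 CPM in cortex and 2.54 ± 8.49 CPM in hippocampus, where 40 of 46 libraries were at 0. L1_Mur2_dup14767 had 36.1 ± 32.7 CPM in cortex and 1.27 ± 4.30 CPM in hippocampus, with 41 libraries at 0. L1_Mur3_dup4120 had 28.6 ± 30.6 and 3.72 ± 13.2 CPM, with 40 hippocampus libraries at 0. In hippocampus the 3 copies had 17, 8 and 30 counts in all, with none in the WT-nt and at most 1 in the TS-nt libraries.

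L1VL4_dup142 had 92.5 ± 116 CPM in cortex, with libraries between 0 and 602 CPM, and 10.2 ± 18.3 CPM in hippocampus. The fitted log2 fold changes of the 4 copies were -4.78, -4.65, -3.56 and -3.38. Since whole groups were at 0, the size of the first 3 depends on the prior count of the fit and is no bound. The cortex levels of these copies varied widely within a group: L1_Mur2_dup1396 ranged from 0 to 152 CPM over WT-t and from 10.6 to 199 CPM over TS-nt mice.

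L1_Mur1_dup6397, L1_Mur3_dup7195 and L1_Rod_dup3008 were the most abundant copies of their subfamilies in both tissues. L1_Rod_dup3008 was lower in hippocampus (-0.58, SE 0.117, adjusted p = 2.78e-05 with edgeR). L1_Mur3_dup7195 did not pass over all libraries (-0.20, SE 0.097, adjusted p = 0.154 with edgeR), and it passed without the 8 cortex libraries (-0.22, adjusted p = 0.0106), with DESeq2 size factors (-0.34, adjusted p = 0.000493) and with the DESeq2 Wald test (-0.34, adjusted p = 8.22e-06). L1_Mur1_dup6397 did not pass (-0.32, SE 0.348, adjusted p = 0.590).

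The other 8 abundant copies were chosen as the highest of their subfamily in 1 tissue, which favors a difference toward that tissue, and their values are a description. The fitted log2 fold changes of those chosen in hippocampus were 0.70 for L1_Mur2_dup16221, 0.64 for L1VL1_dup1644, 0.41 for L1VL2_dup3788 and 0.29 for L1VL4_dup3720. Those chosen in cortex had values of -0.95 for L1_Mur2_dup3194, 0.05 for L1VL4_dup4612, 0.22 for L1VL1_dup1554 and 0.28 for L1VL2_dup3208. In this fit the last 3 were thus not lower in hippocampus although they were the most abundant copies of their subfamily in cortex. The sign of L1VL4_dup4612 depended on the setting, with -0.12 under DESeq2 size factors and -0.035 with at least 10 counts. L1VL2_dup3208, whose adjusted p-value with edgeR was 0.144 over all libraries, had one of 0.0984 without the 8 cortex libraries (0.21).

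The effects of genotype and of lamivudine were compared within each tissue. The first comparison was TS-nt vs. WT-nt, and the second set treated trisomic mice against the same controls (TS-t vs. WT-nt). The third and the fourth gave the effect of lamivudine, first in trisomic mice as TS-t vs. TS-nt and then in euploid mice as WT-t vs. WT-nt. The fifth was TS-t vs. WT-t, and the last was how far the effect of lamivudine differed between genotypes (the interaction). These 6 comparisons share groups and are not independent. No member passed the threshold of an adjusted p-value of 0.1 in any of the 12 comparisons with edgeR. In cortex 0% of all 5416 elements were called in each comparison. In hippocampus 0.0708% of 4238 elements (3) were called in TS-nt vs. WT-nt, 2 elements (0.0472%) in the comparison of TS-t with WT-nt mice, and 0% in the other 4 comparisons. The DESeq2 Wald test called 1 member in hippocampus in each of TS-t vs. TS-nt and TS-t vs. WT-t, and none elsewhere.

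At an unadjusted p-value below 0.05, the members numbered 5, 8, 1, 7, 11 and 3 of 315 in cortex in the order given, or 0.317% to 3.49%. The shares of all L1 elements were 1.51%, 1.75%, 0.905%, 1.59%, 1.96% and 1.11%. In hippocampus the members numbered 9, 10, 5, 11, 11 and 6 of 230, or 2.17% to 4.78%, and the shares of all elements were 4.03%, 4.25%, 3.26%, 3.16%, 3.94% and 3.11%. In cortex 202 of 315 members (64.1%) had a positive log2 fold change in TS-nt vs. WT-nt, against 56.1% of all elements (medians 0.17 and 0.07). In the comparison of TS-t with WT-nt mice 199 (63.2%) did, against 57% (medians 0.13 and 0.07), and in TS-t vs. WT-t 200 (63.5%) did, against 60.7% (medians 0.16 and 0.09). Sums over copies went the other way in TS-nt vs. WT-nt and TS-t vs. WT-nt, with medians over the 7 subfamilies of -0.12 and -0.10. With library size alone in place of TMM factors these medians were -0.031 and -0.069. Both comparisons include the WT-nt cortex library of mouse 24, with 7.001% of its L1 counts on members, and medians without it are not given here. In TS-t vs. WT-t the median of the sums was positive as well (0.05). In hippocampus the medians of the members were between 0.0013 and 0.048 in the 6 comparisons.

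Sums over the copies of a subfamily did not pass the threshold either. None of the 7 subfamilies was called in the 12 comparisons with edgeR, against 0.752% of all 133 subfamilies in cortex in each of TS-nt vs. WT-nt and TS-t vs. WT-nt, 1.52% of 132 in hippocampus in the same comparisons, and 0% in the other 8. The largest difference in cortex outside the interaction was that of L1_Mur1 in TS-nt vs. WT-nt (-0.34, SE 0.166, p = 0.0485 and adjusted p = 0.208 with edgeR). It rested on the WT-nt library with the highest L1 total (mouse 24), since it was -0.06 (adjusted p = 0.954) without that library and -0.41 at the other end of the range of fits that left out a library. In hippocampus the largest differences were those of L1VL1 in TS-t vs. WT-nt (0.19, SE 0.069, adjusted p = 0.226) and of L1_Mur1 in TS-t vs. TS-nt (0.18, SE 0.076, adjusted p = 0.407). In cortex the 95% intervals of L1_Mur1 were as wide as -0.67 to -0.0023, whereas in hippocampus the interval of L1_Mur3 in TS-nt vs. WT-nt was -0.055 to 0.089.

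**Figure D3:**
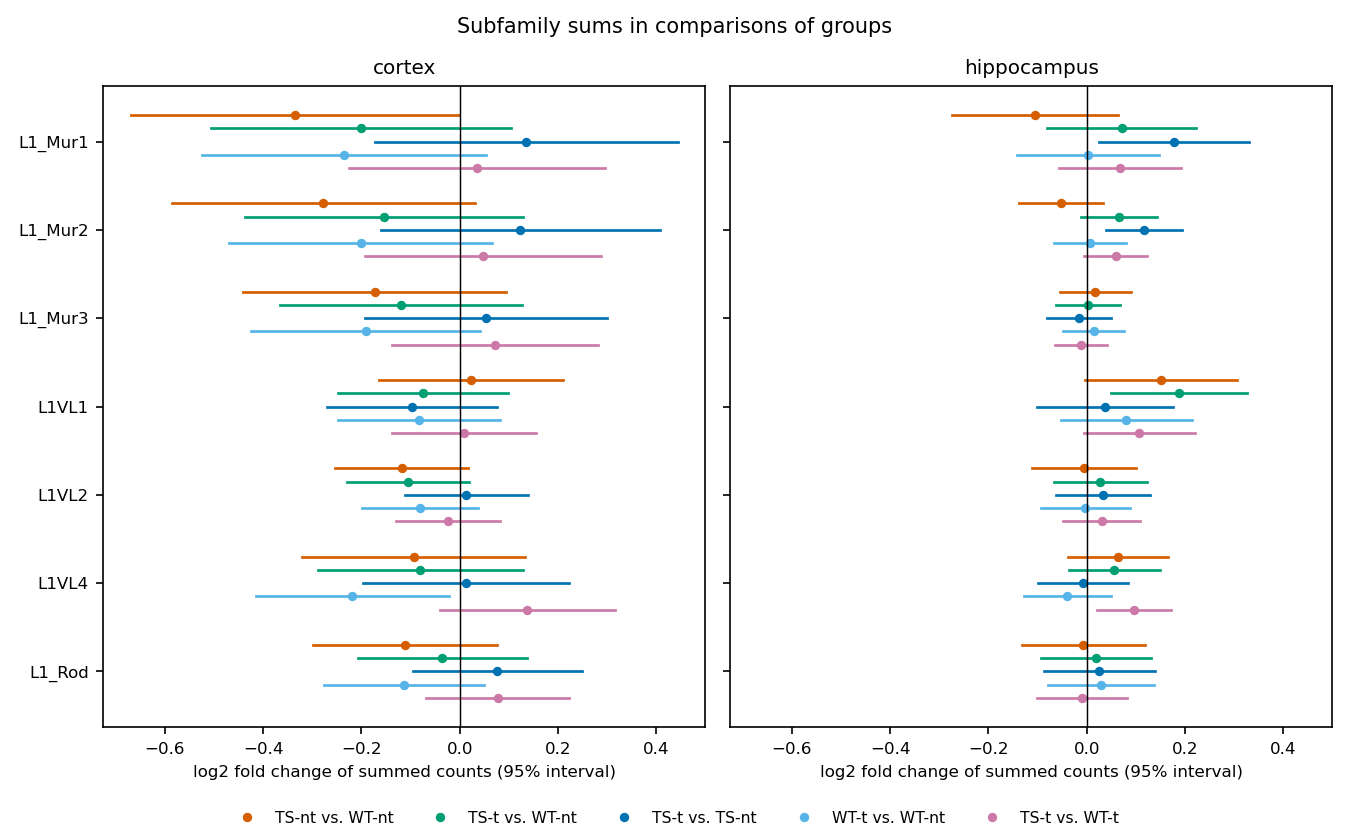
Log2 fold changes of summed counts for each subfamily in 5 comparisons of groups, in cortex (left) and hippocampus (right); points are edgeR estimates and lines 95% intervals. Intervals are wider in cortex than in hippocampus, and no subfamily passed the adjusted threshold.

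L1_Mur2 in hippocampus did not pass in the main fit but passed in some of the alternatives. Its log2 fold change in TS-t vs. TS-nt was 0.12 (SE 0.038, p = 0.00380 and adjusted p = 0.251 with edgeR). It passed the threshold with DESeq2 size factors (0.13, adjusted p = 0.0844) and with the DESeq2 Wald test (0.13, adjusted p = 0.0486), and its adjusted p-value was between 0.0486 and 0.934 over these and the other alternatives apart from leaving out libraries. Without TS-nt mouse 27 it was 0.15 (adjusted p = 0.0142) and without TS-t mouse 36 it was 0.14 (adjusted p = 0.0566). The TS-nt hippocampus libraries had between 0.604% and 0.873% of L1 counts on L1_Mur2 (median 0.691%) and the TS-t libraries between 0.673% and 0.863% (median 0.777%), so that the groups overlapped. The library of mouse 27 had the highest value of its group.

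The member with the smallest adjusted p-value among the comparisons of genotype was L1VL4_dup4853. In hippocampus its lowest, median and highest level was 86.7, 252 and 444 CPM in WT-nt and 56.1, 181 and 437 CPM in WT-t mice. In TS mice these values were 174, 541 and 839 CPM without treatment and 183, 411 and 547 CPM with it. The medians of both TS groups lay above those of both WT groups, and the ranges overlapped. In cortex they were 40.7, 120 and 259 CPM in WT-nt, 0, 107 and 337 in WT-t, 141, 278 and 415 in TS-nt and 19.7, 215 and 438 in TS-t mice. The medians stood in the same order by genotype there, with wider overlap.

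In single comparisons L1VL4_dup4853 did not pass. Its log2 fold change in hippocampus was 0.92 in TS-t vs. WT-t (SE 0.227, adjusted p = 0.185 with edgeR) and 0.95 in TS-nt vs. WT-nt (SE 0.308, adjusted p = 0.884), and in cortex 1.09 in TS-nt vs. WT-nt (SE 0.430, adjusted p = 0.999). In hippocampus the TS-t vs. WT-t difference passed with the DESeq2 Wald test (adjusted p = 0.0228) and with only the 2 groups in the edgeR fit (adjusted p = 0.0673), and over all alternatives the adjusted p-value was between 0.0129 and 1.000.

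A contrast of TS with WT over both treatments was added after these values had been seen. In hippocampus L1VL4_dup4853 was the only member of 230 called, with a log2 fold change of 0.93 (SE 0.192, adjusted p = 0.0100 with edgeR), beside 0.0944% of all elements (4 of 4238). Its level was 434 ± 176 CPM over 21 TS and 224 ± 112 CPM over 25 WT libraries. It was called in all 46 fits that left out a library (adjusted p between 0.00104 and 0.0313), with DESeq2 size factors (adjusted p = 0.0212), with the Wald test (adjusted p = 0.00505) and with treated mice limited to labels beginning with 20 (1.21, adjusted p = 0.0346). These fits reuse the libraries in which the copy had already stood out by genotype. Their p-values are therefore not independent evidence.

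In cortex the same contrast gave L1VL4_dup4853 a log2 fold change of 0.95 (SE 0.272, p = 0.000625), which did not pass the threshold with edgeR over all libraries (adjusted p = 0.719), where 0% of elements were called. It passed without the 8 cortex libraries (0.95, adjusted p = 0.00938) and with the Wald test (adjusted p = 0.0940), and in none of the 48 fits that left out a single library (adjusted p between 0.151 and 1.000). The adjusted p-value thus went from 0.00938 to 1.000 while the estimate stayed between 0.88 and 1.06. Its position on the genome was not analysed here, so that whether it lies in a segment with an additional copy in TS mice is not known. L1VL4_dup4612, the most abundant L1VL4 copy of cortex, was also called in cortex without the 8 libraries (0.46, adjusted p = 0.0748) and with the Wald test (0.43, adjusted p = 0.0968). Its cortex medians were 462 CPM in WT-nt, 535 in WT-t, 673 in TS-nt and 729 in TS-t mice.

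**Figure D4:**
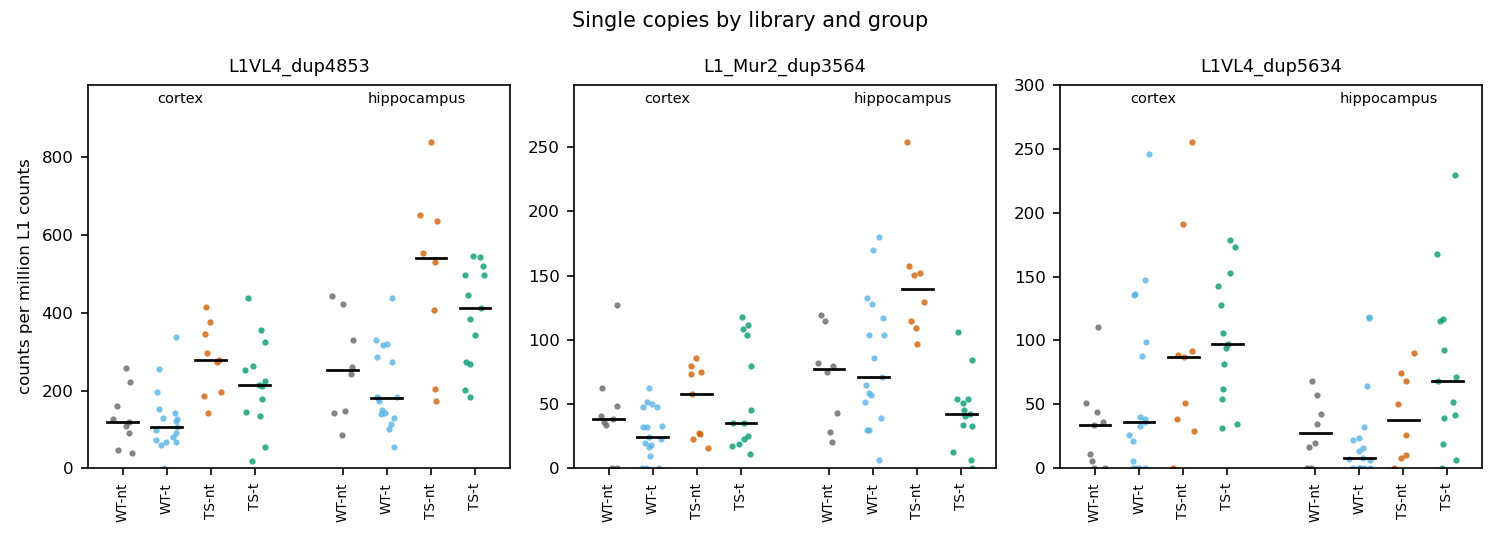
Level (CPM) of L1VL4_dup4853, L1_Mur2_dup3564 and L1VL4_dup5634 in each library by tissue and group. The unit is counts per 1000000 counts on the L1 elements that passed the count filter in the tissue, not on all L1 elements as the axis reads. Points are libraries and lines group medians. L1VL4_dup4853 has its higher medians in TS groups of both tissues (541 and 411 CPM in hippocampus against 252 and 181 CPM in WT), and the ranges of the groups overlap.

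L1_Mur2_dup3564 had the smallest adjusted p-value among the comparisons of treatment. In hippocampus it ranged from 96.9 to 254 CPM in TS-nt mice (median 140) and from 0 to 106 CPM in TS-t mice (median 42.4). In WT mice the medians were 77.4 CPM without and 71.4 CPM with treatment. The TS-nt libraries were high, and they overlapped the TS-t libraries only between 96.9 and 106 CPM. The log2 fold change in TS-t vs. TS-nt was -1.72 (SE 0.430, p = 0.000130) and did not pass the threshold (adjusted p = 0.372 with edgeR). Over the alternatives the adjusted p-value was between 0.0474 and 0.999, and it passed with the Wald test (0.0728). Without the TS-nt library with the highest level (mouse 23) the value was -1.57. The interaction of treatment and genotype was -1.96 (SE 0.611, p = 0.00185, adjusted p = 1.000). In cortex the medians of this copy were 38.5 CPM in WT-nt, 24.4 in WT-t, 58.2 in TS-nt and 35.2 in TS-t mice, with overlapping ranges.

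L1_Rod_dup9433 was among the members with the smallest p-values in 3 of the hippocampus comparisons, which share the WT-nt group. Its medians there were 140 CPM in WT-nt, 222 in WT-t, 243 in TS-nt and 229 in TS-t mice, so that WT-nt stood lowest. The log2 fold change was 0.84 in TS-nt vs. WT-nt (SE 0.284, adjusted p = 0.884 with edgeR), 0.74 in TS-t vs. WT-nt (SE 0.260, adjusted p = 0.731) and 0.61 in WT-t vs. WT-nt (SE 0.250, adjusted p = 1.000). In cortex the medians were 139, 154, 180 and 183 CPM. The WT-nt libraries ranged from 75.5 to 238 CPM in hippocampus and overlapped each other group.

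L1_Mur3_dup27344 had the smallest p-values in cortex in WT-t vs. WT-nt (-1.69, SE 0.683, p = 0.0146) and TS-t vs. WT-t (1.75, SE 0.631, p = 0.00610), both with adjusted p-values of 0.999 with edgeR. Its cortex medians were 54.9 CPM in WT-nt, 10.95 in WT-t, 20.4 in TS-nt and 46.9 in TS-t mice. These are medians of 10, 2, 4 and 8 counts per library, and 8 of 48 libraries were at 0. In hippocampus its medians were 0, 32.5, 35.2 and 18.7 CPM, an order unlike that of cortex. The other copies with the smallest p-values in a comparison were L1_Mur2_dup9146, L1_Mur2_dup19110, L1_Mur3_dup261, L1_Mur3_dup6864 and L1VL2_dup127 in cortex and L1_Mur3_dup7422, L1_Rod_dup4382, L1_Rod_dup9528, L1VL2_dup3208 and L1VL4_dup4611 in hippocampus. Their adjusted p-values with edgeR were between 0.675 and 1.000.

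A position on the genome was known for 2 members, from a list that the study chose on these samples. Neither their direction nor their p-values below are therefore independent evidence. L1_Mur2_dup71 lies at chr1:9196313-9196836 of GRCm38 on the minus strand (524 bp), in an intron of Sntg1, which encodes gamma-1-syntrophin and is transcribed from the same strand. It did not have enough counts for the test over all elements. In cortex it was at 0 in 3 of 9 WT-nt libraries and between 12.2 and 77.5 CPM in the other 6, and in TS-t mice it was at 0 in 11 of 13 libraries and at 8.76 and 10.4 CPM in the other 2. The means were 25.4 and 1.47 CPM, which is a difference of -23.9 CPM (two-sided exact permutation test over 497420 splits, p = 0.00149). In WT-t and TS-nt mice 15 of 17 and 7 of 9 cortex libraries were at 0. The p-value was 0.00656 without the 8 cortex libraries and 0.0195 with labels beginning with 20. In hippocampus 7 of 8 WT-nt libraries were at 0 and 4 of 13 TS-t libraries had counts, so that the order of the groups was not that of cortex.

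L1VL4_dup5634 lies at chr17:51864128-51864433 on the plus strand (306 bp), in no annotated gene and 911 bp from Gm37176. Its position was not compared here with the bounds of the MMU17 segment that TS mice carry in addition. In cortex it ranged from 0 to 110 CPM in WT-nt (median 33.9) and from 31.2 to 178 CPM in TS-t mice (median 97.6), with medians of 36.7 in WT-t and 87.1 in TS-nt mice. The TS-t mean of 102.8 CPM was 70.2 CPM above that of WT-nt (two-sided exact permutation test, p = 0.00213), also without the 8 cortex libraries (p = 0.00606) and with labels beginning with 20 (p = 0.00325). In the model over all elements its log2 fold change was 1.65 (SE 0.665, adjusted p = 0.999 with edgeR). In hippocampus the medians were 27.3 CPM in WT-nt, 8.51 in WT-t, 37.99 in TS-nt and 68.6 in TS-t mice. Both p-values are for single copies from the study's list, and are not adjusted over the L1 elements of the table.

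The level of a copy was also compared between the 2 tissues of the same mouse, with group means taken off, over 46 mice. Of 198 members tested in both tissues, 13 (6.57%) had correlated levels at an adjusted p-value below 0.1, all with a positive Spearman's rho, against 7.39% of 3722 elements that were positive. The share of members was thus near that of L1 elements. The 13 copies were 5 of 38 in L1VL2, 3 of 29 in L1_Mur2, 2 of 44 in L1_Mur3 and 1 each of 13 in L1_Mur1, 13 in L1VL1 and 29 in L1_Rod, and none of 32 in L1VL4. The median rho was 0.10 over the members and 0.11 over all elements. Without the 8 mice of the cortex libraries named above, 12 of the 198 members were called, beside 225 of 3722 L1 elements, again a similar share.

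L1VL2_dup3379 had a rho of 0.55 (Pearson's r 0.54, permutation test over 46 mice, adjusted p = 0.00445), which was 0.58 as r without the 2 mice farthest from the cortex median. Within label starts 18, 19 and 20 its rho was 0, 0.75 and 0.55 over 7, 12 and 27 mice. L1_Mur2_dup4428 had a rho of 0.55 (r 0.48, permutation adjusted p = 0.00445; r 0.50 without 2 mice) and 0.75, 0.41 and 0.47 within the label starts. L1VL2_dup866 had a rho of 0.51 (r 0.64, permutation adjusted p = 0.0120; r 0.58 without 2 mice) and 0.14, 0.74 and 0.55 within them. These values within label starts were not tested, and the 3 copies were chosen for a high rho over all mice. L1VL4_dup4853, the copy with higher counts in TS mice, had a rho of 0.11 after the group means were taken off (permutation adjusted p = 0.767).

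L1_Mur1_dup6397 stood apart because the mice fell into separate clusters. It had no count in either tissue of 4 mice (2 WT-t and 2 TS-t). In 2 more TS-t mice it had no count in hippocampus and 9 and 3 counts in cortex (40.6 and 14.1 CPM). In 1 WT-nt mouse it had no count in cortex and 55 counts in hippocampus, and that cortex library is among the 8 named above. In the other 39 mice it was between 239 and 1636 CPM in cortex and between 195 and 1332 CPM in hippocampus, so that no mouse lay between 40.6 and 239 CPM in cortex. Within these 39 mice rho was 0.50 (permutation p = 0.00137) and r was 0.39 (permutation p = 0.0140), or 0.53 without the 2 farthest mice. This copy had the highest rho of the members over all 46 mice (0.76, permutation adjusted p = 0.000631). The 39 mice were chosen by their counts of it, so that the p-values within them are not independent evidence and are not adjusted. A TS-nt cortex library without a hippocampus library was also at 0. Mice at 0 in both tissues had labels beginning with 18 in 1 case and with 20 in 3.

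**Figure D5:**
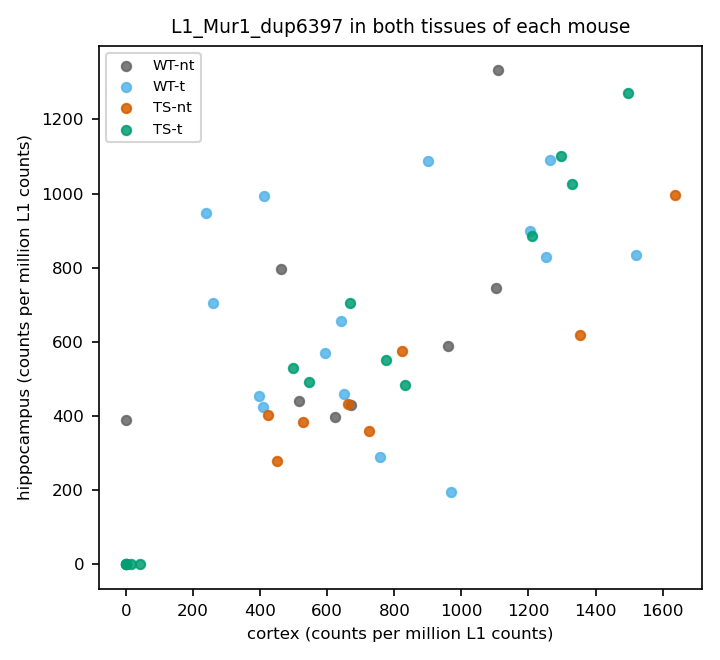
Level (CPM) of L1_Mur1_dup6397 in cortex (x axis) and hippocampus (y axis) of the same mouse, for 46 mice colored by group. The unit is counts per 1000000 counts on the L1 elements that passed the count filter in the tissue, not on all L1 elements as the axes read. 6 treated mice lie at or near 0 in both tissues, and 39 mice lie at or above 195 CPM in both.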

How the data were processed

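Total RNA libraries (TruSeq Stranded Total RNA with Ribo-Zero Gold, paired-end, NovaSeq6000) were made from cortex and hippocampus of male WT and TS mice. The deposited values are raw counts of reads per L1 element: per the submitters' processing notes and the study's methods, the authors ran Trimmomatic 0.38 for trimming, HISAT2 2.1.0 for alignment on GRCm38 (mm10) and Telescope for counting, where a read that maps to several copies goes to the most probable of them. The Telescope version and its use of strand are not given in the sources used here, so that reads may be split among near-identical copies and may come from either strand of a gene around a copy. StringTie 2.1.3b is also listed and concerns genes, not used here. All columns of the table belonged to samples of the series, and no 2 libraries of a group held identical counts.

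Elements were filtered with filterByExpr by group, normalized with TMM factors and tested with the quasi-likelihood test of edgeR 4.0.16 (R 4.3.3, limma 3.58.1, robust fitting), with the 4 groups of a tissue in 1 model. Adjusted p-values (Benjamini-Hochberg) were taken over all L1 elements tested, or over all L1 subfamilies for sums over copies, and the threshold was 0.1, after the study. Hippocampus was compared with cortex over all 94 libraries. For the same mouse in both tissues, log2 CPM (prior count 2) without group means were correlated over mice with 100000 permutations (Python 3.11.15, scipy 1.17.1, numpy 2.4.6, pandas 2.3.3; figures with matplotlib 3.10.9). CPM are counts per 1000000 counts on the L1 elements kept by the filter, not on all L1 elements, scaled with TMM factors. Filter and factors were those within a tissue, or over both tissues where the tissues are compared. Alternatives were DESeq2 1.42.0 (Wald test or size factors), other filters, thresholds, sums and sets of libraries. The models were tested on simulated data with known changes. Counting error is part of every spread given.

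The copies named were the most abundant of each subfamily and tissue, the members that the study's list places on the genome (annotated with GENCODE genes of GRCm38), L1_Mur2_dup3564, the called members of a comparison or else the 2 with the smallest p-values, the 4 called with the largest change in each direction between tissues, and the 4 called with the highest rho. L1VL1_dup225, L1_Rod_dup3078 and the added contrasts were chosen after their values were seen. Members and lists were chosen with earlier results of these data known.

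The animal labels pair the 2 tissues of 46 mice. In 3722 elements tested in both tissues, the correlation of a mouse's deviations from the group means between its libraries was between 4.14e-05 and 0.541 (median 0.132), and over 0.1 in 33 of 46 mice.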

Additional observations from a re-analysis of the deposited data

Results flagged for a closer look

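Of 88 sets of 8 or 9 libraries compared within groups, 25 had a highest or lowest library that stood apart from the others by Dixon's criterion, where chance gives about 1 in 20. Most were shares of L1 counts in the libraries of 2 mice.

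In cortex of WT-nt mice the library of mouse 24 was highest for L1_Mur1 (0.632% of L1 counts, next 0.389%), L1_Mur2 (1.66%, next 0.909%), L1_Mur3 (2.37%, next 1.48%), L1VL4 (0.802%, next 0.577%) and all 7 subfamilies together (7.001%, next 4.73%). It also had the most L1 counts of all libraries (1165192), and it is among the 8 cortex libraries far along the first principal component. The hippocampus library of the same mouse was instead lowest of its group for L1_Mur2 (0.605%), L1_Mur3 (1.16%) and all 7 together (3.504%).

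In cortex of TS-nt mice the library of mouse 27 was highest for L1_Mur1 (0.507%), L1_Mur2 (1.18%), L1_Mur3 (2.22%), L1VL2 (0.752%), L1VL4 (0.770%), L1_Rod (1.00%) and all 7 together (6.64%, next 4.48%). This library is not among the 8. Its hippocampus library was highest of its group for L1_Mur1 (0.336%), L1_Mur3 (1.56%) and all 7 together (4.93%, next 4.17%), and it had the highest L1 total of hippocampus (403378). The part of sequencing depth in these shares was not tested.

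Single copies stood apart in 7 sets. In cortex of WT-nt mice L1VL4_dup5634 was highest in mouse 44 (110 CPM, next 50.8), L1_Mur2_dup3564 was highest in mouse 33 (127 CPM, next 62.7) and L1_Mur2_dup16221 was lowest in mouse 24 (118 CPM, next 412). In hippocampus of WT-nt mice L1_Mur1_dup6397 was highest in mouse 42 (1332 CPM, next 796) and L1_Mur2_dup3194 was highest in mouse 24 (896 CPM, next 377). In hippocampus of TS-nt mice L1_Mur2_dup3564 was highest in mouse 23 (254 CPM, next 157) and L1_Mur1_dup6397 was highest in mouse 25 (996 CPM, next 618).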

How the results depend on the processing

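Of 660 values recomputed under alternatives other than leaving out a library, 573 kept their direction and their side of the threshold or stayed within 1.5 times, and of 1022 that left out a library 1013 did. The filter on low counts mattered most. When all elements with 10 or more counts over the libraries were kept, members called in the 6 comparisons of groups, in the order of the report, numbered 3116, 3767, 763, 3381, 1806 and 1058 of 11934 in cortex and 998, 993, 964, 916, 840 and 893 of 7206 in hippocampus. These were 26.1%, 31.6%, 6.39%, 28.3%, 15.1% and 8.87% of the members in cortex, against 20.8%, 25%, 6.86%, 22.8%, 13.5% and 9.05% of all L1 elements, and 11.7% to 13.8% in hippocampus, against 10.6% to 14.5%. Without a filter they numbered 3764, 5107, 678, 4366, 3301 and 905 in cortex and 0, 1080, 1043, 777, 1588 and 694 in hippocampus, or 2.96% to 22.3% of the members in cortex, against 2.98% to 18.4% of all elements, and 0% to 9.91% in hippocampus, against 0% to 9.27%. With 10 or more counts, copies with over 50% of their counts in 1 library were 2237, 2820, 273, 2431, 1105 and 434 of those called in cortex and between 143 of 893 and 212 of 840 in hippocampus, where those called had counts in a median of 4 to 5 libraries. In cortex TS-nt vs. WT-nt 0 were called without the 8 cortex libraries far along the first principal component (450, 430, 266, 656 and 503 in the other 5 comparisons in the same order). The added contrasts gave 1008 (TS vs. WT) and 927 (treated vs. non-treated) with that filter in cortex and 907 and 925 in hippocampus. These were 8.45% and 7.77% of the members in cortex, against 8.57% and 7.94% of all L1 elements. In hippocampus they were 12.6% and 12.8%, against 12.3% and 12.8%.

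With the DESeq2 Wald test, 1 member was called in hippocampus in each of TS-t vs. TS-nt and TS-t vs. WT-t, and 1 in TS-t vs. WT-t with only the 2 groups in the fit. For TS vs. WT the Wald test called 2 members in cortex and 3 in hippocampus (also L1_Rod_dup4382, -0.91, adjusted p = 0.0342, and L1_Rod_dup3078, -0.88, adjusted p = 0.0980), and 2 were called in cortex without the 8 libraries. With treated mice limited to labels beginning with 20, 1 was called in hippocampus for treated vs. non-treated (L1VL1_dup225, 5.42, DESeq2 not run, edgeR adjusted p = 0.00404). That limit left 3 WT-t hippocampus libraries. With all libraries and the main filter L1VL1_dup225 did not have enough counts for a test in hippocampus, so that it entered only with the smaller set. Whether its value rests on a few libraries was not tested, and the call is given as a description. Of subfamilies, 1 was called in hippocampus TS-t vs. TS-nt with DESeq2 size factors and with the Wald test (0 to 1 over fits without a library), and with sums of only those copies tested singly 1 was called in TS-t vs. WT-t in each tissue (L1VL4, 0.22 in cortex and 0.17 in hippocampus), and L1VL2 turned from -0.10 to 0.078 in cortex TS-t vs. WT-nt. Over all alternatives 55 of 84 subfamily comparisons of groups changed sign, with log2 fold changes of up to 0.33.

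Between the tissues, 25 members were higher with size factors, 107 lower with the Wald test, and 1843 called (268 higher and 1575 lower, 13.1% of members and 13.8% of all elements) with at least 10 counts. L1VL4_dup4612 turned to -0.12 with size factors and the Wald test and to -0.035 with at least 10 counts. L1VL4 was no longer called with library size alone (-0.050), without its most abundant copy (-0.051) or without the 8 libraries (-0.028), and L1VL1 was called without its most abundant copy (-0.094) and turned to 0.0010 without the 8 libraries. With mouse as a replicate block 92 members were called (35 higher and 57 lower) and no subfamily changed its call. For size factors, the Wald test and the block, the share of all L1 elements called is not given here. Those counts therefore do not set the members apart from other L1 elements. With the block and without the 8 libraries, an alternative chosen after seeing the data, L1VL4 was at -0.039 and L1VL2 at 0.014. For the same mouse in both tissues, 18 members were called without taking off group means, 13 with a prior count of 0.5 and 12 without the 8 mice. The 12 stood beside 225 of 3722 L1 elements. The share of all elements is not given here for the other settings, so that their counts do not set members apart. The causes of these changes were not tested. At this depth 315 and 230 of 27659 members had enough counts for a test of the single copy.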
